A study of Mus musculus with 12 samples.

Results

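Doxorubicin alone was set against its vehicle in NIH/3T3, a mouse embryonic fibroblast line, using the 3 libraries treated with 5 µM doxorubicin (DOX) for 8 h and the 3 libraries treated with dimethyl sulfoxide (DMSO) for 8 h. These 6 libraries of the 12 in the study were chosen by the treatment that their sample labels give, and all genes with enough counts were examined. The study sequenced polyadenylated RNA of this line after vehicle, doxorubicin, carfilzomib or both drugs, and the libraries with carfilzomib were not used here except in 1 alternative model. All cells were wild type and were grown in DMEM with 10% fetal bovine serum. The libraries are called DMSO 1 to 3 and DOX 1 to 3 by the replicate number in their titles. The labels do not say whether replicates were separate cultures, and the p-values below therefore measure the spread between these libraries, which may be technical. A single line was studied at 1 dose and 1 time.

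Doxorubicin is an anthracycline used against tumours. It slides between the bases of DNA, traps topoisomerase II on the strand breaks that the enzyme makes, and can evict histones from chromatin. The breaks activate the kinases of the DNA damage response and, through them, the transcription factor p53, whose targets halt the cell cycle or start cell death. Intercalation also hinders RNA polymerases I and II, so that transcripts with a short life are lost soonest when synthesis slows.

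The 6 libraries held 31024213 to 42033993 counts. The NIH/3T3 label was checked against 10 fibroblast markers, of which 9 stood at 1 CPM or more in all 6 libraries (CPM, the count scaled to the same total in every library), while Lum was near 0. The locus Cdkn2a, which this line has lost, had 0 counts in all 6, which allows up to 0.0967 CPM in the smallest library (3 counts, counting error only). DOX and DMSO lay far apart on the first principal axis of the log levels, which carried 87.9% of the variance. On the second axis, with 5.2%, DOX 3 lay at −46.2, apart from DOX 1 and DOX 2 at 30.4 and 15, while the DMSO libraries lay between −4 and 6.4. The median SD of a gene over replicates was 0.279 on the log2 CPM scale with DOX and 0.129 with DMSO. A value after ± is the SD over the 3 libraries of a group.

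Most genes changed, and in both directions. With DOX, 5550 of 15365 tested genes were higher than with DMSO (36.1%) and 5019 were lower (32.7%), by edgeR's quasi-likelihood test at an adjusted p under 0.05. At least a 2-fold difference was reached by 3295 of the higher genes (21.4%) and 3016 of the lower ones (19.6%). In 5844 genes (38.0%) every DOX library lay above every DMSO library, and in 5394 (35.1%) every DOX library lay below. Without DOX 3 the counts were 5950 and 5954, and 10260 of the 10569 calls were shared in the same direction. The middle of the distribution lay near 0, with a median log2 fold change of 0.10, and the 5th and 95th percentiles were −2.0 and 3.68.

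Which way many genes moved depended on what the libraries were scaled to. A library holds shares of the RNA that was sequenced, so a larger share of 1 class of genes lowers all others. With the trimmed mean of M-values (TMM), the scaling used for every value below unless another is named, 52.5% of the calls were higher. The share was 46.7% with the library total alone and 66.1% with the upper quartile. Scaled to the sum of the cytosolic ribosomal protein genes, 1771 genes were higher (11.5%) and 8780 lower (57.1%), so that 16.8% of the calls were higher and the median of all genes moved by −0.90. Scaled to the mitochondrially encoded genes, the counts were 3630 and 5895, with 38.1% higher and the median moved by −0.31. The median moved by 0.33 with the upper quartile and by −0.15 with the library total. Under all 6 scalings (these 5 and the relative log expression factors) 1770 genes were called higher (11.5%) and 3712 lower (24.2%), and a gene that belongs to these is said below to have been called in all 6 scalings. Among the 12625 genes that reached the minimum count in all 6 libraries, more were lower than higher with TMM scaling, 4696 (37.2%) against 3728 (29.5%), with a median log2 fold change of −0.08. Of these, 411 were higher in all 6 scalings (3.26%) and 3454 lower (27.4%). Another 1983 genes passed the minimum only through the DOX libraries, and 1359 of the 1770 came from these. Such a gene was tested only because of its level with DOX, and 1812 of the 1983 were called higher and 0 lower. Nearly all members of the lists below reached the minimum in all 6 libraries, so that both backgrounds apply to them. For calls with TMM scaling these are 36.1% higher and 32.7% lower of all genes, and 29.5% and 37.2% of the 12625. For calls in all 6 scalings these are 11.5% higher and 24.2% lower of all genes, and 3.26% and 27.4% of the 12625. The exceptions that passed only through DOX were 31 replication-dependent histone genes, 3 interferon-stimulated genes, 2 genes of doxorubicin transport and 1 gene each of the feedback, polyadenylated histone, snoRNA host, integrated stress, unfolded protein, NF-κB and lysosomal lists.

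**Figure D1:**
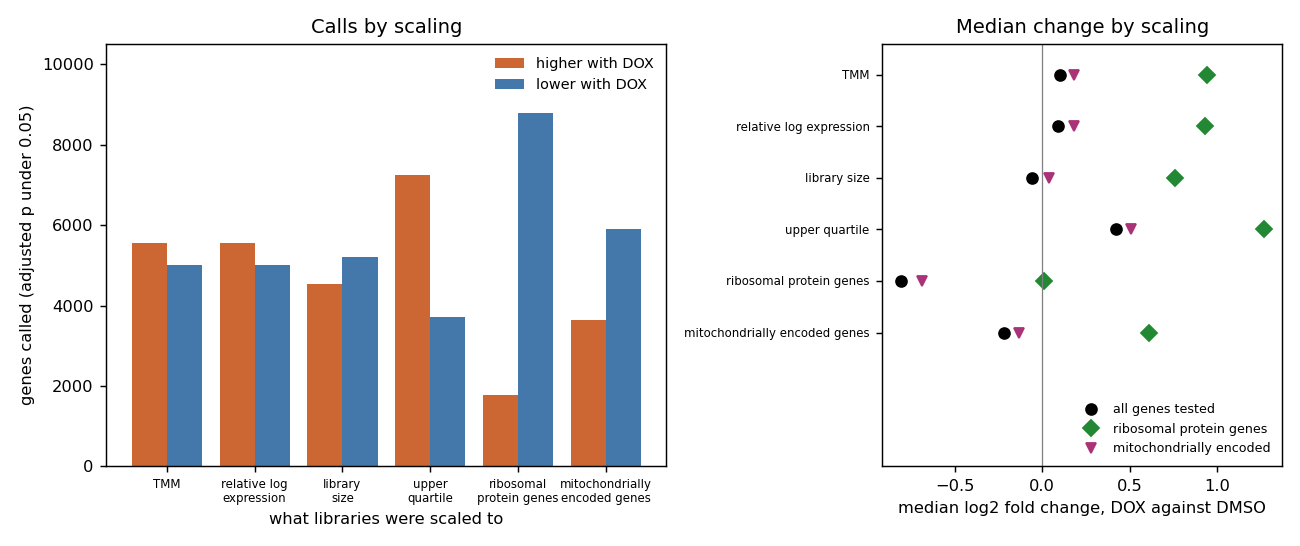
Left, number of genes called higher or lower with DOX under each of 6 scalings of the libraries (bars, edgeR adjusted p under 0.05). Right, median log2 fold change of all 15365 tested genes, of 79 ribosomal protein genes and of 13 mitochondrially encoded genes under each scaling. Scaling to ribosomal protein genes gave 1771 higher and 8780 lower genes, against 5550 and 5019 with TMM.

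Among abundant genes the falls were steeper than the rises. The genes named here have a mean of at least 50 CPM over the 6 libraries, no overlap between the groups and the same call in all 6 scalings, and were ranked by their fold change. Mat2a encodes the enzyme that makes S-adenosylmethionine, the methyl donor of the cell, and lies on chromosome 6, 72409782 to 72416541 (GRCm39; ENSMUSG00000053907). It stood at 280.2, 356 and 322 CPM with DMSO and 18.6, 21.8 and 29.3 CPM with DOX, a 13.8-fold fall (log2 fold change −3.78, SE 0.20, edgeR adjusted p = 8.51e-07). Arf6, a small GTPase of membrane traffic, stood at 124, 139 and 122 CPM with DMSO and 7.64, 7.16 and 14.7 CPM with DOX (log2 fold change −3.70, SE 0.26, edgeR adjusted p = 2.04e-06). In both genes every DOX library lay far below every DMSO library.

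Another 7 of the largest falls ranged from −3.59 for Klf3 to −3.35 for Asap1 on the log2 scale. They were the Krüppel-like factors Klf3 and Klf6, the regulator of G protein signalling Rgs2, the ubiquitin ligase adaptor Klhl9, Rif1, which acts in replication timing and the choice of break repair, the small GTPase gene Rhob and the Arf GTPase-activating gene Asap1. Klf6 stood at 190.1, 184 and 183 CPM with DMSO and 14.7, 16.8 and 18.2 CPM with DOX (log2 fold change −3.49, SE 0.14, edgeR adjusted p = 4.04e-07). Rif1 stood at 111, 120.0 and 126 CPM with DMSO and 8.16, 11.1 and 13.8 CPM with DOX (log2 fold change −3.43, SE 0.19, edgeR adjusted p = 1.06e-06). In all 9 genes DOX 3 was the highest of the 3 DOX libraries, as in Rhob with 303, 293 and 280.2 CPM with DMSO and 21.6, 24.2 and 38.5 CPM with DOX (log2 fold change −3.38, SE 0.22, edgeR adjusted p = 1.39e-06).

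Of the abundant genes that rose, Cirbp came first. It encodes the cold-inducible RNA-binding protein and lies on chromosome 10, 80001819 to 80008620 (GRCm39; ENSMUSG00000045193). Its levels were 24.8, 16.4 and 18.9 CPM with DMSO and 154, 116 and 86.3 CPM with DOX (log2 fold change 2.57, SE 0.23, edgeR adjusted p = 6.37e-06). Polr2a, the gene of the largest subunit of RNA polymerase II (chromosome 11, 69624823 to 69649463; ENSMUSG00000005198), varied little among the DOX libraries, with 339, 420.0 and 335 CPM with DMSO and 1404, 1384 and 1432 CPM with DOX (log2 fold change 1.95, SE 0.16, edgeR adjusted p = 4.22e-06). Under ribosomal scaling its log2 fold change was still 1.06. Mybl1, a transcription factor of the MYB family, stood at 18.3, 16.9 and 20.8 CPM with DMSO and 62.5, 75.7 and 117 CPM with DOX (log2 fold change 2.19, SE 0.22, edgeR adjusted p = 1.35e-05).

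Eda2r, a receptor gene of the tumour necrosis factor family and a known p53 target, rose to 145 ± 21.3 from 38.9 ± 0.651 CPM (log2 fold change 1.90, SE 0.14, edgeR adjusted p = 2.51e-06). Ppp1r13l, which encodes the p53 inhibitor iASPP, rose to 92.03 ± 13.3 from 26.6 ± 1.01 CPM (log2 fold change 1.79, SE 0.14, edgeR adjusted p = 3.64e-06). Ptgs2, the inducible cyclooxygenase, stood at 191, 106 and 77.1 CPM with DMSO and 623, 634 and 269 CPM with DOX, with DOX 3 well below the other DOX libraries but above every DMSO library (log2 fold change 2.03, SE 0.37, edgeR adjusted p = 0.000683). The mitochondrial 12S ribosomal RNA mt-Rnr1 rose as well, with 436, 618 and 621 CPM with DMSO and 3328, 2473 and 1452 CPM with DOX (log2 fold change 2.12, SE 0.29, edgeR adjusted p = 9.49e-05), and its DOX levels differed by more than 2-fold between libraries. Tmcc2, Ndrg1 and Cdk2ap2 complete the 10 largest rises, with log2 fold changes of 1.62, 1.47 and 1.47.

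**Figure D2:**
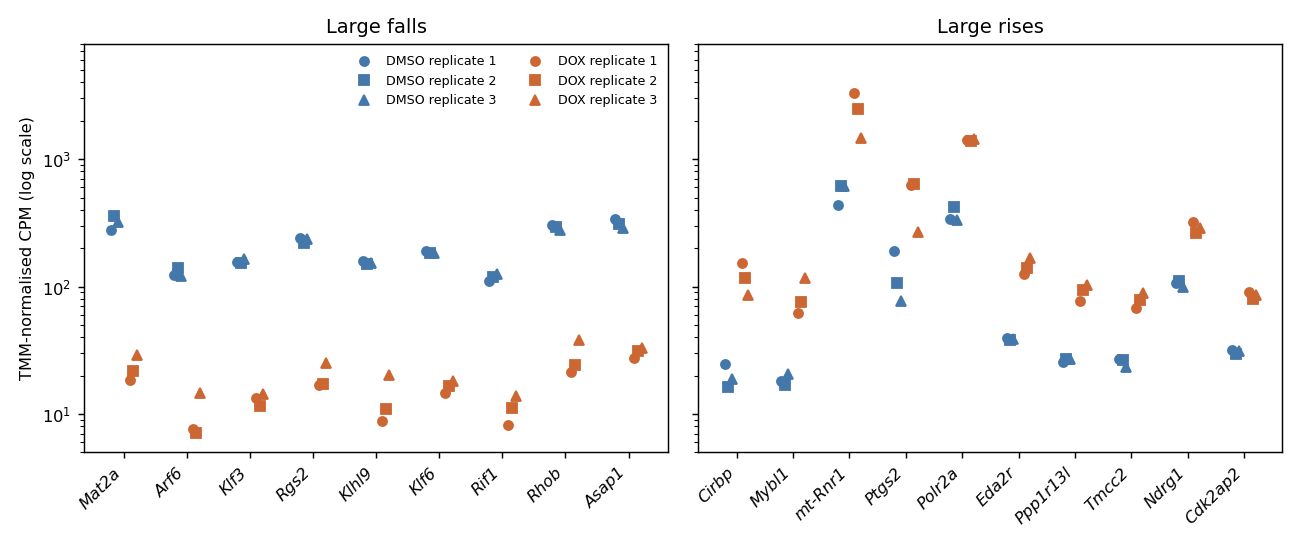
TMM-normalised CPM (log axis) of 9 of the abundant genes with the largest falls (left) and the 10 with the largest rises (right), 1 point per library, blue for DMSO and orange for DOX. Mat2a fell from 280.2 to 356 CPM to 18.6 to 29.3 CPM, Polr2a rose from 335 to 420 CPM to 1384 to 1432 CPM, and no gene shown overlaps between the groups.

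With DOX, more of the counts came from ribosomal protein genes and from nuclear genes of the respiratory chain. Ribosomal protein genes held 4.01%, 4.29% and 4.36% of the counts in DMSO 1 to 3 and 7.34%, 7.22% and 6.77% in DOX 1 to 3 (4.22 ± 0.184% and 7.11 ± 0.30%, SD, n = 3). The groups do not overlap, and the exact two-sided permutation test gave p = 0.1, the smallest that 3 libraries against 3 allow. Nuclear respiratory chain genes held 0.765 ± 0.0205% and 1.22 ± 0.0452% (same exact permutation test, p = 0.1). With TMM scaling 78 of 79 ribosomal protein genes rose (background 36.1%) with a median log2 fold change of 0.94, which was 0.01 when the libraries were scaled to these genes themselves. Of 74 respiratory chain genes 71 rose, with a median of 0.95, and 0.03 under ribosomal scaling. In all 6 scalings 3 genes of each list rose, among them the ribosomal protein genes Rplp1, Rpl31 and Rps28. Rplp1, a protein of the ribosomal stalk, stood at 829.5, 874 and 869.6 CPM with DMSO and 2276, 1892 and 1425 CPM with DOX (log2 fold change 1.12, SE 0.19, edgeR adjusted p = 0.000431). Cox6a1, a subunit of cytochrome c oxidase, stood at 147, 150.3 and 162 CPM with DMSO and 452, 387 and 266 CPM with DOX (log2 fold change 1.27, SE 0.19, edgeR adjusted p = 0.000169). In both genes DOX 3 was the lowest of the DOX libraries and still above all DMSO libraries. Rps10 was the ribosomal protein gene that fell (−1.13, edgeR adjusted p = 0.000922), but it was counted at only 7.75 ± 1.37 CPM with DMSO and 3.54 ± 0.538 CPM with DOX, and reads that it shares with near-identical copies may have been lost or split in counting. Values of a bulk sample cannot tell fewer cells from less RNA per cell.

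The 13 mitochondrially encoded protein genes did not follow their nuclear partners. They held 1.65 ± 0.202% of the counts with DMSO and 1.82 ± 0.135% with DOX (SD, n = 3, exact two-sided permutation test, p = 0.4). With TMM scaling 5 rose (38.5%, beside 36.1% of all genes) and none fell, but 3 rose without DMSO 1 and 2 without DMSO 2, 1 fell without DOX 1 and 1 without DOX 3. Of the 5, mt-Co2 and mt-Co3 were counted at means of only 7.14 and 5.96 CPM with DMSO. Reads of both may have been lost or split in counting, which was not tested and bears on the count and the median. The median log2 fold change of the 13 genes, 0.18, turned to −0.69 under ribosomal scaling. It was −0.13 under mitochondrial scaling, which sets the libraries to the sum of these genes themselves and so says nothing of their direction. The cytochrome oxidase gene mt-Co1 stood at 5674, 4731 and 6466 CPM with DMSO and 11780, 9176 and 8677 CPM with DOX (log2 fold change 0.81, SE 0.21, edgeR adjusted p = 0.00569), turned to −0.11 under ribosomal scaling and missed the threshold without DMSO 2 (adjusted p = 0.0551, edgeR). The cytochrome b gene mt-Cytb stood at 2160, 1778 and 2200 CPM with DMSO and 1872, 1371 and 1435 CPM with DOX and was not called (log2 fold change −0.39, SE 0.19, edgeR adjusted p = 0.0806), although it was lower in 3 other scalings, and without DOX 1 it was lower with TMM too (−0.55, edgeR adjusted p = 0.0172), as it was without DOX 3 (−0.39, adjusted p = 0.0331).

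A few very abundant genes gained the most share. The 10 most abundant genes of each library held 6.03 ± 0.388% of the counts with DMSO and 8.56 ± 1.35% with DOX, and the top 100 held 19.6 ± 0.315% and 27.1 ± 2.7% (exact permutation test, p = 0.1 for each). The genes whose share grew most were Eef1a1, Col1a2, Fn1, Col1a1 and mt-Co1. The translation elongation factor gene Eef1a1 stood at 8104, 8245 and 8219 CPM with DMSO and 16850, 13450 and 12030 CPM with DOX (log2 fold change 0.79, SE 0.20, edgeR adjusted p = 0.00548), and at −0.14 on the log2 scale under ribosomal scaling. The fibronectin gene Fn1 stood at 8147, 5159 and 4874 CPM with DMSO and 19360, 9147 and 5509 CPM with DOX, overlapped between the groups and was not called (log2 fold change 0.90, SE 0.40, edgeR adjusted p = 0.0654); without DOX 1 its log2 fold change was 0.26. The collagen I genes Col1a1 and Col1a2 were called at 0.73 and 0.72 (edgeR adjusted p = 0.0262 and 0.0413), turned to −0.23 and −0.24 under ribosomal scaling, and were not called without DOX 1 (0.42 and 0.33, adjusted p = 0.0954 and 0.185), nor without any 1 of the DMSO libraries (adjusted p from 0.0676 to 0.164), and Col1a1 also not without DOX 2 (0.0547).

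The share of Ahnak, Hspa8, Eif4b, Eif3a and mt-Cytb shrank most. Ahnak encodes a giant scaffold protein and stood at 2144, 2437 and 1938 CPM with DMSO and 657, 865 and 572 CPM with DOX (log2 fold change −1.64, SE 0.20, edgeR adjusted p = 4.29e-05). Eif4b and Eif3a encode translation initiation factors. Eif4b stood at 1000, 1117 and 1137 CPM with DMSO and 443, 372 and 315 CPM with DOX (log2 fold change −1.53, SE 0.17, edgeR adjusted p = 2.55e-05), and Eif3a at 972, 1096 and 966 CPM with DMSO and 378, 397 and 331 CPM with DOX (log2 fold change −1.46, SE 0.15, edgeR adjusted p = 1.64e-05). All 3 were lower in all 6 scalings. Of the control genes in common use, Gapdh rose from 1722 ± 148 to 3131 ± 514 CPM (log2 fold change 0.86, SE 0.19, edgeR adjusted p = 0.00181) but turned to −0.06 under ribosomal scaling, while the actin gene Actb, at 2988, 3572 and 3070 CPM with DMSO and 3304, 3724 and 2329 CPM with DOX, was not called with TMM (log2 fold change −0.04, SE 0.21, edgeR adjusted p = 0.868) but was lower under ribosomal scaling (−0.97).

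As a list, the p53 targets of growth arrest and repair went in both directions. Of 25 tested genes 10 rose (40%) and 7 fell (28%), beside 36.1% and 32.7% of all genes tested. All 25 reached the minimum count in all 6 libraries, where the background was 29.5% higher and 37.2% lower. In all 6 scalings 4 rose and 7 fell, beside 3.26% and 27.4% of the genes at that minimum. The median log2 fold change was 0.20, or −0.69 under ribosomal and −0.11 under mitochondrial scaling. Trp53 itself stood at 156, 177 and 175 CPM with DMSO and 146, 163 and 150.4 CPM with DOX, overlapped between the groups and was not called with TMM (log2 fold change −0.15, SE 0.13, edgeR adjusted p = 0.319), though it was lower in 2 other scalings. The Cdk inhibitor gene Cdkn1a, the canonical arrest target, stood at 146, 128 and 139 CPM with DMSO and 159.6, 156 and 157 CPM with DOX. Its groups did not overlap, yet the difference was small and not called with TMM (log2 fold change 0.20, SE 0.12, edgeR adjusted p = 0.166). Cdkn1a was called higher with upper-quartile scaling (0.53) and lower under ribosomal scaling (−0.70). Mdm2, whose product marks p53 for degradation, stood at 134, 117 and 113 CPM with DMSO and 86.8, 85.5 and 114 CPM with DOX and was not called with TMM (log2 fold change −0.35, SE 0.15, edgeR adjusted p = 0.0573), but it was lower in 2 other scalings and, with TMM, without DOX 3 (−0.55, edgeR adjusted p = 0.00047).

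Other targets moved far. Mdm4, the partner of Mdm2 in holding p53 in check, stood at 83.1, 80.9 and 86.4 CPM with DMSO and 13.04, 12.4 and 13.2 CPM with DOX (log2 fold change −2.69, SE 0.13, edgeR adjusted p = 8.51e-07), with DOX libraries within 1 CPM of each other. Phlda3, an inhibitor of AKT signalling, stood at 238, 247 and 239 CPM with DMSO and 34.2, 38.5 and 44.8 CPM with DOX (log2 fold change −2.63, SE 0.14, edgeR adjusted p = 1.03e-06). The polo-like kinase gene Plk3 rose instead, with 16.4, 13.7 and 9.79 CPM with DMSO and 41.3, 41.6 and 51.1 CPM with DOX (log2 fold change 1.75, SE 0.20, edgeR adjusted p = 3.17e-05). Trp53inp1, which promotes p53 phosphorylation, stood at 13.98, 8.58 and 14.6 CPM with DMSO and 37.1, 35.7 and 54.6 CPM with DOX (log2 fold change 1.78, SE 0.24, edgeR adjusted p = 9e-05). The antiproliferative gene Btg2 stood at 13.02, 7.04 and 9.91 CPM with DMSO and 35.2, 25.3 and 81.7 CPM with DOX, with DOX 3 more than 2-fold above the other DOX libraries (log2 fold change 2.25, SE 0.40, edgeR adjusted p = 0.000524), and its log2 fold change was 1.55 without DOX 3.

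The list of cell death genes went in both directions too. Of 30 tested p53 targets and BCL2 family genes 10 rose and 10 fell (33.3% each, beside 36.1% and 32.7% of all genes). All 30 were at the minimum in all 6 libraries, where the background was 29.5% and 37.2%. In all 6 scalings 3 rose and 8 fell, beside 3.26% and 27.4% of the genes at that minimum. The median of 0.14 turned to −0.75 under ribosomal and −0.15 under mitochondrial scaling. Among the genes whose proteins promote death, Pmaip1 (NOXA) stood at 5.08, 4.1 and 5.05 CPM with DMSO and 48.96, 47.3 and 74.6 CPM with DOX (log2 fold change 3.59, SE 0.22, edgeR adjusted p = 1.22e-06). Bcl2l11 (BIM) stood at 16.3, 14.01 and 13.2 CPM with DMSO and 57.8, 62.7 and 82.4 CPM with DOX (log2 fold change 2.22, SE 0.17, edgeR adjusted p = 3.26e-06). The death receptor gene Fas stood at 4.03, 2.44 and 4.2 CPM with DMSO and 11.1, 11.2 and 20.03 CPM with DOX (log2 fold change 1.99, SE 0.30, edgeR adjusted p = 0.000165). In these 3 genes every DOX library lay above every DMSO library, DOX 3 was the highest, and the rise was called in all 6 scalings.

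Other genes of the same list went the opposite way. Bbc3 (PUMA), also death-promoting, stood at 14.5, 14.3 and 16.3 CPM with DMSO and 5.92, 6.01 and 8.96 CPM with DOX (log2 fold change −1.11, SE 0.21, edgeR adjusted p = 0.000722). Mcl1, a protective member of the BCL2 family with a short-lived transcript, stood at 184, 157 and 134 CPM with DMSO and 18.3, 15.9 and 34.8 CPM with DOX (log2 fold change −2.78, SE 0.27, edgeR adjusted p = 1.13e-05). Bax, the effector of outer membrane permeability, rose from 60.4 ± 6.67 to 111 ± 17.4 CPM (log2 fold change 0.88, SE 0.15, edgeR adjusted p = 0.000464), but turned to −0.05 under ribosomal scaling. Birc3, an inhibitor of apoptosis, fell from 7.41 ± 0.674 to 2.32 ± 0.293 CPM (log2 fold change −1.68, SE 0.20, edgeR adjusted p = 4.46e-05).

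**Figure D3:**
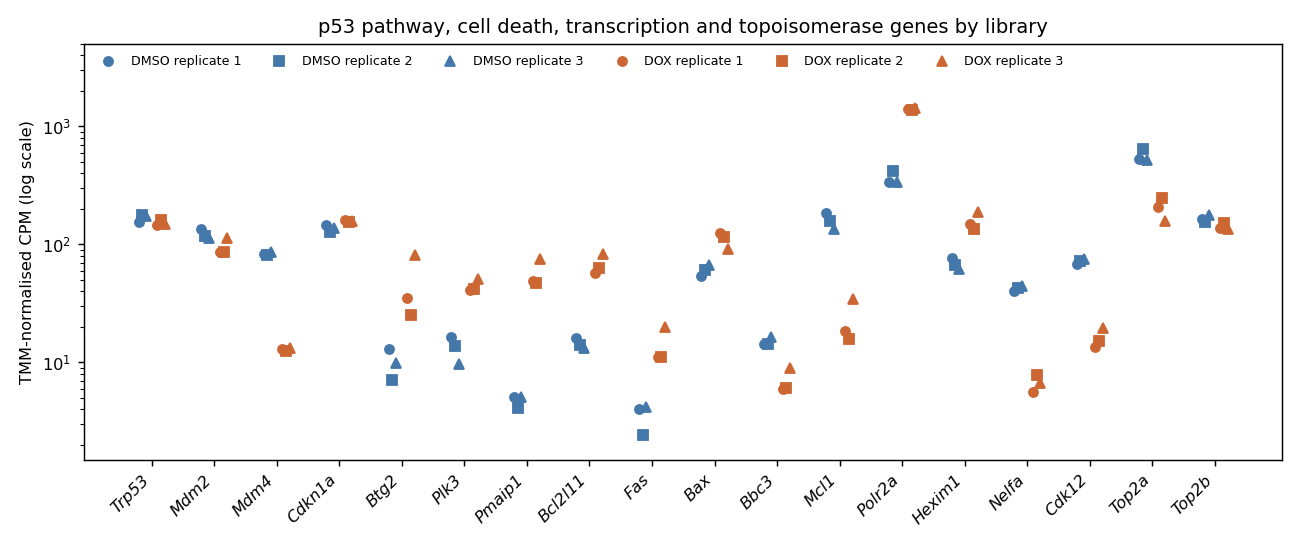
TMM-normalised CPM (log axis) of genes of the p53 pathway, of cell death, of transcription and of topoisomerase II, 1 point per library, blue for DMSO and orange for DOX. Pmaip1, Bcl2l11, Fas, Plk3 and Polr2a rose, Mdm4, Mcl1, Nelfa and Cdk12 fell, and Trp53 and Mdm2 overlap between the groups.

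Topoisomerase II is the target of the drug. Its proliferation-linked form Top2a (chromosome 11, 98883769 to 98915015 on GRCm39; ENSMUSG00000020914) stood at 525, 641 and 523 CPM with DMSO and 209, 248 and 158 CPM with DOX (log2 fold change −1.46, SE 0.19, edgeR adjusted p = 6.3e-05), and was lower in all 6 scalings. Top2b, the form that resting cells also use, stood at 164, 156 and 176 CPM with DMSO and 139, 151 and 135 CPM with DOX. Its groups did not overlap, but the difference was not called with TMM and all 6 libraries (log2 fold change −0.22, SE 0.12, edgeR adjusted p = 0.134). It was lower in 3 other scalings and, with TMM, when DOX 3 was left out (−0.24, edgeR adjusted p = 0.0378). Of the 12 genes of topoisomerases and of the repair of their adducts 5 fell (41.7%) and 1 rose, or 8 fell without DOX 3. Of all genes 32.7% fell, and 37.2% of those at the minimum in all 6 libraries, as all 12 were. The median of the 12 was −0.39 (−0.06 with upper-quartile scaling). Tdp1, which frees topoisomerase I from DNA ends, fell from 14.2 ± 0.847 to 7.76 ± 1.36 CPM (log2 fold change −0.87, SE 0.19, edgeR adjusted p = 0.00185). Tdp2, which does so for topoisomerase II, stood at 30.2, 33.7 and 35.04 CPM with DMSO and 21.5, 23.1 and 32.2 CPM with DOX and was not called with TMM and all 6 libraries (log2 fold change −0.37, SE 0.18, edgeR adjusted p = 0.0894). It was lower in 2 other scalings and, with TMM, when DOX 3 was left out (−0.62, edgeR adjusted p = 0.000274). The ubiquitin ligase gene Rnf4 fell from 164 ± 9.16 to 79.2 ± 21.1 CPM (log2 fold change −1.04, SE 0.18, edgeR adjusted p = 0.000428).

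Of 17 tested genes of doxorubicin transport and metabolism 7 rose (41.2%, beside 36.1% of all genes) and 1 fell, or 6 and 1 of the 15 at the minimum in all 6 libraries. Without DOX 3, 11 of the 17 rose and 2 fell, and the median of 0.44 turned to −0.51 under ribosomal scaling. The efflux pump gene Abcb1b stood at 199, 237 and 199.5 CPM with DMSO and 352, 348 and 261 CPM with DOX (log2 fold change 0.60, SE 0.16, edgeR adjusted p = 0.00651), and turned to −0.33 under ribosomal scaling. Its neighbour Abcb1a was low, with 1.93, 1.94 and 2.34 CPM with DMSO and 4.31, 2.68 and 1.55 CPM with DOX, and was not called (log2 fold change 0.46, SE 0.33, edgeR adjusted p = 0.237) unless DOX 3 was left out (0.71, edgeR adjusted p = 0.0194). The carbonyl reductase gene Cbr1, whose enzyme makes doxorubicinol, stood at 10.04, 9.56 and 10.96 CPM with DMSO and 15.8, 13.8 and 11.98 CPM with DOX; it was called (log2 fold change 0.45, SE 0.18, edgeR adjusted p = 0.0418), but not when any 1 of 5 libraries was left out (adjusted p from 0.0824 to 0.165), and it turned to −0.48 under ribosomal scaling. The aldose reductase gene Akr1b3 rose more clearly, with 108, 119 and 126 CPM with DMSO and 281, 269.8 and 278 CPM with DOX (log2 fold change 1.23, SE 0.13, edgeR adjusted p = 1.56e-05).

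Genes of DNA damage signalling and repair mostly fell. Of 66 genes, all tested, 38 fell (57.6%) and 5 rose (7.58%), beside 32.7% and 36.1% of all genes tested, 27 and none in all 6 scalings, with a median log2 fold change of −0.53 beside 0.10 for all genes. The count of 5 that rose dropped to 1 when any of DMSO 1, DMSO 2, DMSO 3 or DOX 2 was left out. Nbn encodes a subunit of the complex that senses double-strand breaks and stood at 45.9, 49.2 and 46.4 CPM with DMSO and 9.36, 9.77 and 7.71 CPM with DOX (log2 fold change −2.40, SE 0.16, edgeR adjusted p = 1.57e-06). Brca2, which acts in homologous recombination, stood at 30.4, 32.98 and 30.5 CPM with DMSO and 5., 4.84 and 8.28 CPM with DOX (log2 fold change −2.37, SE 0.22, edgeR adjusted p = 8.8e-06). Fancf, of the Fanconi anaemia core complex, stood at 9.61, 8.98 and 8.86 CPM with DMSO and 0.804, 1.05 and 1.92 CPM with DOX (log2 fold change −2.86, SE 0.30, edgeR adjusted p = 1.63e-05). The groups of these 3 genes lay far apart. Ercc1, a subunit of a repair nuclease, was the largest of the 5 rises (0.65, edgeR adjusted p = 0.00488) and turned to −0.27 under ribosomal scaling.

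Genes of mitosis mostly fell. Of 40 genes, all tested, 30 fell (75%, beside 32.7% of all genes) and 1 rose, 20 (beside 24.2% of all genes) and none in all 6 scalings, with a median of −0.79. Their share of the counts went from 0.537%, 0.622% and 0.549% in DMSO 1 to 3 to 0.234%, 0.286% and 0.353% in DOX 1 to 3 (exact two-sided permutation test, p = 0.1). Ect2, the exchange factor that positions the cleavage furrow, stood at 106, 134 and 119 CPM with DMSO and 12.2, 18.5 and 26.1 CPM with DOX (log2 fold change −2.66, SE 0.24, edgeR adjusted p = 7.65e-06). The cyclin A2 gene Ccna2 stood at 163, 197 and 170.0 CPM with DMSO and 21.8, 25.3 and 41.2 CPM with DOX (log2 fold change −2.58, SE 0.23, edgeR adjusted p = 5.8e-06). The kinesin gene Kif20b stood at 106, 122 and 114 CPM with DMSO and 15.8, 16.7 and 35.96 CPM with DOX (log2 fold change −2.32, SE 0.28, edgeR adjusted p = 4.42e-05). In each of the 3 genes DOX 1 was the lowest library and DOX 3 the highest of the DOX group. Pttg1, which encodes securin, was the mitotic gene that rose, from 25.1 ± 2.38 to 44.3 ± 3.93 CPM (log2 fold change 0.82, SE 0.14, edgeR adjusted p = 0.000525), and it turned to −0.06 under ribosomal scaling.

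Promoters of mitotic genes share short elements, and they are shown because these genes moved together. The CCAAT box (CCAAT) binds the factor NF-Y, and the cell cycle homology region (TTTGAA) is an element through which the DREAM and B-MYB complexes act. RefSeq promoters of GRCm38.p6, 250 bases before to 50 after a start, were found for 34 of the 40 mitotic genes (38 promoters). Counted on both strands, 81.6% of these held CCAAT and 68.4% held TTTGAA, against 37.4% and 17.9% of all 32851 promoters of that length and 38.3% and 11.7% of those of protein-coding genes at 5 CPM or more. The E2F element TTTCCCGC was in 0 of the 38, in 12.2% of the 49 promoters of 41 of the 50 DNA replication genes and in 1.07% of all promoters. The replication genes held CCAAT in 61.2% and TTTGAA in 12.2% of their promoters. TATAAA was in 5.26% of the mitotic and 13.6% of all promoters. Among protein-coding genes at 5 CPM or more, promoters of those lower in all 6 scalings held CCAAT in 36.7% and TTTGAA in 13%. These shares lay near the 38.3% and 11.7% of all protein-coding genes at that level. Whether either element goes with the fall of mitotic genes was not tested. A match of letters is a description and does not show that a site is used.

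The windows below run from 50 bases before to 30 after the start, 5′ to 3′ on the strand of the gene, for 10 mitotic genes with a single promoter and both elements in that window. Genes of a single chromosome were left out of this choice, so that the 10 need not be all such genes. Capitals mark CCAAT or its complement ATTGG and TTTGAA or its complement TTCAAA, which share a base in Cdca8.
Ttk: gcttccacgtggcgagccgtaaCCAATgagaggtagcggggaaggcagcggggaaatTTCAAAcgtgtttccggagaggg
Racgap1: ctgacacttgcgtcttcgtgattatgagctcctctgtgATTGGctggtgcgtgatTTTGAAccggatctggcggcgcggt
Cdc20: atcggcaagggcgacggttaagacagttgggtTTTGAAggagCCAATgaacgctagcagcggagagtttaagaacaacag
Kif4: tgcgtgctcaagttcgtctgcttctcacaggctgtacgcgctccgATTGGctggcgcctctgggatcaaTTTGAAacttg
Kif11: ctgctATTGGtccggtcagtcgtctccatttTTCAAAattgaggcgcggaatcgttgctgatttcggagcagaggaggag
Cdk1: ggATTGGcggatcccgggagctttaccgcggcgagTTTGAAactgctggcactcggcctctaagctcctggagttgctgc
Cdca8: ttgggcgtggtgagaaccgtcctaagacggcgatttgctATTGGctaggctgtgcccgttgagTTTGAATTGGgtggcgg
Kif23: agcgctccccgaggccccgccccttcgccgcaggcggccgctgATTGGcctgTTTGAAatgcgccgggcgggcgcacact
Hmmr: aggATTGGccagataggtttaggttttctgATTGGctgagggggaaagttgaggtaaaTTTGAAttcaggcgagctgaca
Ccnb2: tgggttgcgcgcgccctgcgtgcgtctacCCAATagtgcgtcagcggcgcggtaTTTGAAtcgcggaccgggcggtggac
They lie on GRCm38.p6 at chr9:83834639-83834718, plus strand (Ttk), chr15:99651627-99651706, minus strand (Racgap1), chr4:118437314-118437393, minus strand (Cdc20), chrX:100626015-100626094, plus strand (Kif4), chr19:37376332-37376411, plus strand (Kif11), chr10:69352883-69352962, minus strand (Cdk1), chr4:124936888-124936967, minus strand (Cdca8), chr9:61946770-61946849, minus strand (Kif23), chr11:40733408-40733487, minus strand (Hmmr) and chr9:70421525-70421604, minus strand (Ccnb2).

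These 10 genes did not move by the same amount. The spindle checkpoint kinase gene Ttk stood at 35.6, 41.6 and 36.2 CPM with DMSO and 8.76, 9.57 and 18.7 CPM with DOX (log2 fold change −1.61, SE 0.27, edgeR adjusted p = 0.000327). The activator of the anaphase-promoting complex, Cdc20, stood at 296, 353 and 310.2 CPM with DMSO and 102, 133 and 154 CPM with DOX (log2 fold change −1.30, SE 0.17, edgeR adjusted p = 7.39e-05). The master mitotic kinase gene Cdk1 stood at 158, 191 and 153 CPM with DMSO and 87.5, 104 and 78.2 CPM with DOX (log2 fold change −0.90, SE 0.15, edgeR adjusted p = 0.000374). All 3, and Racgap1, Kif4, Kif11 and Cdca8, were lower in all 6 scalings, with log2 fold changes from −1.61 to −0.78. Kif23 (−0.52) and Hmmr (−0.43) were lower in 5 scalings. The cyclin B2 gene Ccnb2, whose window holds both elements too, stood at 17.8, 20.6 and 18.7 CPM with DMSO and 22.8, 18.5 and 17.7 CPM with DOX and was not called (log2 fold change 0.05, SE 0.16, edgeR adjusted p = 0.807).

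Of 50 DNA replication genes, all tested, 22 fell (44.0%) and 9 rose (18%), beside 32.7% and 36.1% of all genes. All 50 were at the minimum in all 6 libraries, where the shares were 37.2% and 29.5%. In all 6 scalings 13 fell and none rose, and with TMM 5 rose without DMSO 1. Their median was −0.20, or 0.13 with upper-quartile scaling. Of the licensing genes, which prepare origins for firing, Cdc6 stood at 84.4, 95.2 and 94.98 CPM with DMSO and 10.9, 14.7 and 21.3 CPM with DOX (log2 fold change −2.55, SE 0.22, edgeR adjusted p = 5.57e-06), and Cdt1 at 95.9, 112 and 104 CPM with DMSO and 17.1, 17.4 and 24.1 CPM with DOX (log2 fold change −2.41, SE 0.17, edgeR adjusted p = 1.82e-06). Chaf1a, of the complex that places histones on new DNA, stood at 140.1, 148 and 148 CPM with DMSO and 31.7, 36.6 and 35.4 CPM with DOX (log2 fold change −2.07, SE 0.12, edgeR adjusted p = 1.15e-06). The 9 rises were smaller, and none was called in all 6 scalings.

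Transcripts of replication-dependent histones end in a stem-loop and mostly lack a poly(A) tail, so that few of their reads are expected in a library of polyadenylated RNA. Of 56 genes 36 passed the minimum count, 31 of them only through the DOX libraries, and counts of calls among them are therefore not given as a result. As a share of the library they went from 0.00213% to 0.0076%. The H2A gene H2ac6 stood at 0.255, 0.144 and 0.0901 CPM with DMSO and 3.79, 2.91 and 2.66 CPM with DOX. Among the polyadenylated histone genes 5 of 11 rose and 2 fell (45.5% and 18.2%, beside 36.1% and 32.7% of all genes), none and 2 in all 6 scalings, with a median of 0.35 that turned to −0.57 under ribosomal scaling. The linker histone gene H1f0 stood at 336, 316 and 356 CPM with DMSO and 41.1, 44.04 and 27.4 CPM with DOX (log2 fold change −3.16, SE 0.19, edgeR adjusted p = 1.17e-06), and H2ax, whose protein is phosphorylated at breaks, at 61.9, 69.8 and 58.5 CPM with DMSO and 15.1, 18.4 and 15.6 CPM with DOX (log2 fold change −1.95, SE 0.15, edgeR adjusted p = 2.92e-06). Both fell in all 6 scalings, while the replacement histone gene H3f3a rose from 164 ± 13.6 to 377 ± 80.7 CPM (log2 fold change 1.20, SE 0.17, edgeR adjusted p = 0.000125).

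Immediate early genes, whose transcripts appear and decay within the hour after a stimulus, went in both directions with large changes. Of 33 tested genes 17 fell (51.5%, beside 32.7% of all genes), all in all 6 scalings, and 8 rose (24.2%, beside 36.1%), 5 of them in all 6, and the median was −1.17. Without DMSO 1, 13 rose. After Klf6, given above, the largest falls were those of Klf2 and Mcl1. Klf2, a transcription factor, stood at 29.9, 29.6 and 28.1 CPM with DMSO and 2.21, 2.71 and 4.89 CPM with DOX (log2 fold change −3.15, SE 0.27, edgeR adjusted p = 5.65e-06). Jun, a subunit of AP-1, stood at 311, 200.2 and 169 CPM with DMSO and 53.2, 54.7 and 85.4 CPM with DOX (log2 fold change −1.82, SE 0.25, edgeR adjusted p = 0.000108). Another AP-1 subunit gene, Fosb, stood at 3.23, 2.68 and 2.22 CPM with DMSO and 52.6, 49.7 and 75.4 CPM with DOX (log2 fold change 4.45, SE 0.23, edgeR adjusted p = 8.51e-07), and the nuclear receptor gene Nr4a3 at 1.08, 0.455 and 0.721 CPM with DMSO and 7.21, 8.59 and 12.3 CPM with DOX (log2 fold change 3.65, SE 0.34, edgeR adjusted p = 7.67e-06).

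The DMSO libraries themselves differed in this group. Egr1 stood at 289, 21.5 and 16.5 CPM with DMSO and 94.5, 78.2 and 88 CPM with DOX, so that DMSO 1 lay above and DMSO 2 and DMSO 3 below all DOX libraries. It was not called (log2 fold change −0.32, SE 1.24, edgeR adjusted p = 0.83), and without DMSO 1 it was higher with DOX (2.17, edgeR adjusted p = 2.94e-05). Fos stood at 4.85, 0.599 and 0.691 CPM with DMSO and 16.02, 12.97 and 25.2 CPM with DOX (log2 fold change 3.15, SE 0.77, edgeR adjusted p = 0.00783); its log2 fold change was 4.78 without DMSO 1, and it was not called without DOX 1 or DOX 3 (adjusted p = 0.0531 and 0.0892). A further list mixed feedback regulators of growth factor signalling with transcription regulators such as Cebpb, Id3 and Mxd1. Among its 30 tested genes 16 fell (53.3%) and 6 rose (20%), beside 32.7% and 36.1% of all genes, 14 and 4 in all 6 scalings. The transcription factor gene Cebpb stood at 13.2, 19.6 and 15.4 CPM with DMSO and 0.373, 0.392 and 0.706 CPM with DOX (log2 fold change −5.01, SE 0.30, edgeR adjusted p = 1.12e-06), below 1 CPM in every DOX library. Id3, an inhibitor of differentiation factors, stood at 69.1, 68.8 and 89.3 CPM with DMSO and 9.3, 9.08 and 16.4 CPM with DOX (log2 fold change −2.71, SE 0.24, edgeR adjusted p = 6.18e-06). Mxd1, a repressor that pairs with MAX, stood at 5.56, 4.65 and 4.32 CPM with DMSO and 48.7, 49.9 and 107 CPM with DOX, with DOX 3 about 2-fold above the other DOX libraries (log2 fold change 3.82, SE 0.31, edgeR adjusted p = 4.17e-06).

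Genes of the transcription machinery mostly fell, unlike Polr2a, which is on the same list. The list held 35 genes of P-TEFb, its regulators and other transcriptional kinases, with Polr2a among them, all tested. Of these 19 fell (54.3%) and 7 rose (20%), beside 32.7% and 36.1% of all genes, with a median of −0.51. In all 6 scalings 15 fell and 1 rose, which was Polr2a. The count of 7 was 4 without any 1 of the DMSO libraries. Nelfa, a subunit of the complex that pauses RNA polymerase II, stood at 40.3, 42.5 and 44.7 CPM with DMSO and 5.63, 7.84 and 6.7 CPM with DOX (log2 fold change −2.66, SE 0.17, edgeR adjusted p = 1.54e-06). Cdk12, the kinase of the elongating polymerase, stood at 67.6, 71.8 and 75.1 CPM with DMSO and 13.5, 15.3 and 19.6 CPM with DOX (log2 fold change −2.15, SE 0.16, edgeR adjusted p = 3.01e-06). Brd2, a reader of acetylated histones, stood at 364, 379 and 357 CPM with DMSO and 85.9, 85.8 and 142 CPM with DOX (log2 fold change −1.81, SE 0.20, edgeR adjusted p = 2.41e-05). In all 3 every DOX library lay far below every DMSO library. Hexim1, the inhibitor of P-TEFb, rose instead, with 76, 67.5 and 61.7 CPM with DMSO and 149.5, 135 and 188 CPM with DOX (log2 fold change 1.20, SE 0.16, edgeR adjusted p = 6.7e-05), in 5 of the 6 scalings.

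Splicing factors fell with them. Of 37 SR and hnRNP genes, all tested, 22 fell (59.5%) and 2 rose (5.41%), beside 32.7% and 36.1% of all genes, 17 and none in all 6 scalings, with a median of −0.64. The count of 2 was 1 without any 1 of 5 libraries and 5 without DOX 3. Srsf1 stood at 413, 472 and 467 CPM with DMSO and 60.6, 80.6 and 44.7 CPM with DOX (log2 fold change −2.86, SE 0.21, edgeR adjusted p = 2.53e-06). Srsf2 stood at 237, 329 and 304 CPM with DMSO and 62.9, 69.7 and 50.1 CPM with DOX (log2 fold change −2.25, SE 0.18, edgeR adjusted p = 3.35e-06). In these SR genes, which promote exon inclusion, DOX 3 was the lowest DOX library, unlike in the 9 abundant genes with large falls named above. The polypyrimidine tract gene Ptbp1 rose (0.66, edgeR adjusted p = 0.00239) but turned to −0.25 under ribosomal scaling.

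The genes that build ribosomes went opposite to those of the ribosomal proteins. Of 44 genes of RNA polymerase I and ribosome biogenesis, all tested, 28 fell (63.6%) and 6 rose (13.6%), beside 32.7% and 36.1% of all genes, 20 and none in all 6 scalings, with a median of −0.60 beside 0.94 for the ribosomal protein genes. The count of 6 was 2 or 3 without any 1 of the DMSO libraries or DOX 2. The nucleolar GTPase gene Gnl3 (nucleostemin) stood at 100.3, 126 and 103 CPM with DMSO and 11.2, 10.7 and 13.7 CPM with DOX (log2 fold change −3.21, SE 0.16, edgeR adjusted p = 8.51e-07). Polr1b, the second largest subunit of RNA polymerase I, stood at 51.02, 65.7 and 56.99 CPM with DMSO and 6.72, 8.56 and 7.01 CPM with DOX (log2 fold change −2.96, SE 0.17, edgeR adjusted p = 1.06e-06). Of 16 tested long noncoding hosts of snoRNAs 9 fell (56.2%) and 5 rose (31.2%), beside 32.7% and 36.1% of all genes. Snhg5 stood at 33.7, 49.7 and 40.8 CPM with DMSO and 2.5, 3.27 and 5.09 CPM with DOX (log2 fold change −3.51, SE 0.27, edgeR adjusted p = 3.13e-06). Of 42 translation factors 14 were lower (33.3%) and 16 higher (38.1%), beside 32.7% and 36.1% of all genes. Among genes at the minimum in all 6 libraries, as these were, the shares were 37.2% and 29.5%. In all 6 scalings 9 were lower and none higher. The median of 0.15 turned negative with the library total (−0.03), ribosomal (−0.78) and mitochondrial scaling (−0.18).

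The integrated stress response had 29 tested genes, of which 9 fell (31.0%) and 8 rose (27.6%), near the 32.7% and 36.1% of all genes, 7 and 1 in all 6 scalings, with a median of −0.02 that was 0.30 with upper-quartile scaling. The count of 8 was 4 without DMSO 1 or DOX 2, 5 without DMSO 3 and 13 without DOX 3. Atf4, the transcription factor at the centre of this response, stood at 593, 688 and 658 CPM with DMSO and 56.97, 60.9 and 72.8 CPM with DOX (log2 fold change −3.35, SE 0.16, edgeR adjusted p = 8.51e-07), a 10.2-fold fall. Its target Trib3 stood at 62.2, 64.7 and 72.3 CPM with DMSO and 4.71, 4.84 and 7.46 CPM with DOX (log2 fold change −3.55, SE 0.21, edgeR adjusted p = 1.06e-06). Of 24 tested genes of the unfolded protein response 16 rose (66.7%) and 3 fell (12.5%), beside 36.1% and 32.7% of all genes. In all 6 scalings none rose and 2 fell, and the median of 0.77 turned to −0.16 under ribosomal scaling. Edem1, of the disposal of misfolded glycoproteins, stood at 127, 108 and 109 CPM with DMSO and 283, 271 and 287 CPM with DOX (log2 fold change 1.29, SE 0.13, edgeR adjusted p = 1.31e-05). Of the 3 that fell, Herpud1, which acts in the disposal of proteins from the endoplasmic reticulum, stood at 109, 99.5 and 99.1 CPM with DMSO and 12.4, 14.5 and 19.2 CPM with DOX (log2 fold change −2.74, SE 0.18, edgeR adjusted p = 1.39e-06) and Xbp1, the factor spliced by IRE1, at 118, 97.6 and 95.3 CPM with DMSO and 28.6, 29.6 and 45.5 CPM with DOX (log2 fold change −1.58, SE 0.19, edgeR adjusted p = 4.29e-05).

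Among 31 tested heat shock genes 14 fell (45.2%) and 8 rose (25.8%), beside 32.7% and 36.1% of all genes. All 31 were at the minimum in all 6 libraries, where the shares were 37.2% and 29.5%. In all 6 scalings 9 fell and none rose, and between 2 and 4 rose without any 1 of the DMSO libraries, DOX 1 or DOX 2. Their median of −0.09 was 0.24 with upper-quartile scaling. The heat shock factor gene Hsf2 stood at 30.7, 34.4 and 33.5 CPM with DMSO and 4.91, 6.37 and 8.39 CPM with DOX (log2 fold change −2.32, SE 0.21, edgeR adjusted p = 6.57e-06), and the HSP40 gene Dnaja2 at 311, 315 and 319 CPM with DMSO and 67.5, 74.4 and 56.5 CPM with DOX (log2 fold change −2.25, SE 0.14, edgeR adjusted p = 1.4e-06). Of 26 NRF2 and metal response genes 12 rose (46.2%) and 5 fell (19.2%), beside 36.1% and 32.7% of all genes. Without DOX 3, 9 fell, and the median of 0.47 turned to −0.45 under ribosomal scaling. The ferritin gene Fth1 stood at 855, 701 and 779 CPM with DMSO and 2300, 1542 and 1383 CPM with DOX (log2 fold change 1.16, SE 0.21, edgeR adjusted p = 0.000624), while the cystine transporter gene Slc7a11 stood at 40.7, 54.5 and 54.6 CPM with DMSO and 20.8, 22.9 and 18.9 CPM with DOX (log2 fold change −1.26, SE 0.16, edgeR adjusted p = 6.88e-05). Of 42 proteasome genes 23 rose (54.8%, beside 36.1% of all genes), or 14 or 15 without any 1 of the DMSO libraries or DOX 2, and 9 fell (21.4%, beside 32.7%). Their median of 0.37 turned to −0.55 under ribosomal scaling.

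Lysosomal genes rose with the ribosomal protein genes and by a like amount. Of 41 tested genes 34 rose (82.9%, beside 36.1% of all genes) and 2 fell, 2 and 2 in all 6 scalings, and the median was 0.95, or 0.01 under ribosomal scaling. The mannosidase gene Man2b1 stood at 44.5, 42.1 and 44.2 CPM with DMSO and 129, 100.2 and 105 CPM with DOX (log2 fold change 1.35, SE 0.14, edgeR adjusted p = 1.26e-05). Tfe3, a transcription factor of lysosomal genes, fell from 40.6 ± 1.11 to 23.95 ± 1.93 CPM (log2 fold change −0.76, SE 0.14, edgeR adjusted p = 0.000597). Of 16 glycolytic genes 14 rose (87.5%, beside 36.1% of all genes), with a median of 0.73 that turned to −0.18 under ribosomal scaling, and Hk2, an inducible hexokinase gene, was the 1 that fell (−1.06, edgeR adjusted p = 0.000148).

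Matrix and contractile genes followed. Of 29 tested collagen and matrix genes 18 rose (62.1%, beside 36.1% of all genes) and none fell, with a median of 0.90 that turned to −0.05 under ribosomal scaling, and their share was 5.91%, 4.61% and 4.85% in DMSO 1 to 3 and 10.1%, 7.02% and 6.24% in DOX 1 to 3 (exact two-sided permutation test, p = 0.1). The thrombospondin gene Thbs1 stood at 362, 258 and 181 CPM with DMSO and 1316, 927 and 471 CPM with DOX, with DOX 1 the highest (log2 fold change 1.76, SE 0.35, edgeR adjusted p = 0.00114). Of 30 actin and contractile genes 17 rose (56.7%) and 6 fell (20%), beside 36.1% and 32.7% of all genes. In all 6 scalings none rose and 5 fell, and the median of 0.62 turned to −0.31 under ribosomal scaling. The smooth muscle actin gene Acta2 stood at 1620, 1963 and 1494 CPM with DMSO and 4404, 4288 and 2315 CPM with DOX (log2 fold change 1.12, SE 0.25, edgeR adjusted p = 0.0025), and the gene of the filamin-interacting protein Filip1l at 104, 77.5 and 84.2 CPM with DMSO and 6.69, 6.57 and 13.96 CPM with DOX (log2 fold change −3.28, SE 0.29, edgeR adjusted p = 5.77e-06). The matricellular gene Ccn1, on the same list, stood at 203, 138 and 114 CPM with DMSO and 16.7, 17.5 and 25.5 CPM with DOX (log2 fold change −2.93, SE 0.24, edgeR adjusted p = 4.2e-06).

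Of 27 tested NF-κB and inflammatory genes 12 fell (44.4%) and 7 rose (25.9%), beside 32.7% and 36.1% of all genes. Of the 24 at the minimum in all 6 libraries 11 fell and 6 rose, beside 37.2% and 29.5% of genes at that minimum. In all 6 scalings 10 of the 27 fell and 3 rose, with a median of −0.04 that was 0.28 with upper-quartile scaling. Bcl3, a nuclear partner of NF-κB subunits, stood at 2.04, 1.51 and 2.19 CPM with DMSO and 0.316, 0.555 and 0.48 CPM with DOX (log2 fold change −2.08, SE 0.31, edgeR adjusted p = 0.000154). The chemokine gene Cxcl1 stood at 8.42, 9.15 and 6.49 CPM with DMSO and 3.48, 2.12 and 1.53 CPM with DOX (log2 fold change −1.75, SE 0.30, edgeR adjusted p = 0.000383). Its relative Cxcl5 stood at 24.4, 22.9 and 16.4 CPM with DMSO and 10.3, 5.06 and 2.09 CPM with DOX (log2 fold change −1.86, SE 0.44, edgeR adjusted p = 0.00317), and at −2.59 on the log2 scale without DOX 1. All 3 were lower in all 6 scalings. The cytokine gene Lif stood at 0.596, 0.719 and 0.661 CPM with DMSO and 8.9, 5.85 and 6.5 CPM with DOX (log2 fold change 3.42, SE 0.26, edgeR adjusted p = 2.72e-06), and Il11 at 3.09, 1.68 and 2.31 CPM with DMSO and 8.07, 9.15 and 12.4 CPM with DOX (log2 fold change 2.07, SE 0.27, edgeR adjusted p = 6.95e-05). Of 17 interferon-stimulated genes at the minimum in all 6 libraries 7 rose and 8 fell, beside 29.5% and 37.2% of all genes at that minimum. With the others, 21 in all, the counts were 10 and 9 (47.6% and 42.9%, beside 36.1% and 32.7% of all genes), and the median of 0.47 turned to −0.45 under ribosomal scaling. Irf7, the master regulator of type I interferon, stood at 0.425, 0.216 and 0.42 CPM with DMSO and 6.92, 4.05 and 3.87 CPM with DOX, and it lay under the minimum in DMSO 2, so that no test of it is given. Ifit2 stood at 79.5, 84.98 and 73.3 CPM with DMSO and 11.9, 11.3 and 11.4 CPM with DOX (log2 fold change −2.78, SE 0.14, edgeR adjusted p = 8.51e-07), with all DOX libraries within 1 CPM of each other. Cgas, the sensor of cytosolic DNA, fell from 26.5 ± 1.93 to 11.1 ± 3.6 CPM (log2 fold change −1.26, SE 0.22, edgeR adjusted p = 0.000523).

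Sterol and clock genes were the other regulated groups examined. Of 27 tested sterol synthesis genes 12 fell (44.4%) and 7 rose (25.9%), beside 32.7% and 36.1% of all genes. All 27 were at the minimum in all 6 libraries, where the shares were 37.2% and 29.5%. In all 6 scalings 8 fell and 1 rose, with a median of −0.18 that was 0.14 with upper-quartile scaling. Insig1, the feedback sensor of the pathway, stood at 101, 96.7 and 113 CPM with DMSO and 18.6, 17.2 and 18.4 CPM with DOX (log2 fold change −2.52, SE 0.13, edgeR adjusted p = 8.51e-07), and the squalene epoxidase gene Sqle at 210.3, 236 and 265 CPM with DMSO and 40.4, 49.8 and 70.5 CPM with DOX (log2 fold change −2.15, SE 0.20, edgeR adjusted p = 9.12e-06). The reductase gene Tm7sf2 rose, with 4.37, 4.02 and 4.44 CPM with DMSO and 18.8, 19.7 and 20.1 CPM with DOX (log2 fold change 2.19, SE 0.17, edgeR adjusted p = 2.96e-06). Of 20 tested clock genes 15 fell (75%) and 3 rose (15%), beside 32.7% and 36.1% of all genes. In all 6 scalings 10 fell and none rose, the median was −0.95, and 1 rose without DMSO 2. Clock stood at 81.8, 73.3 and 76.9 CPM with DMSO and 22.7, 23.7 and 22.7 CPM with DOX (log2 fold change −1.75, SE 0.13, edgeR adjusted p = 2.18e-06).

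**Figure D4:**
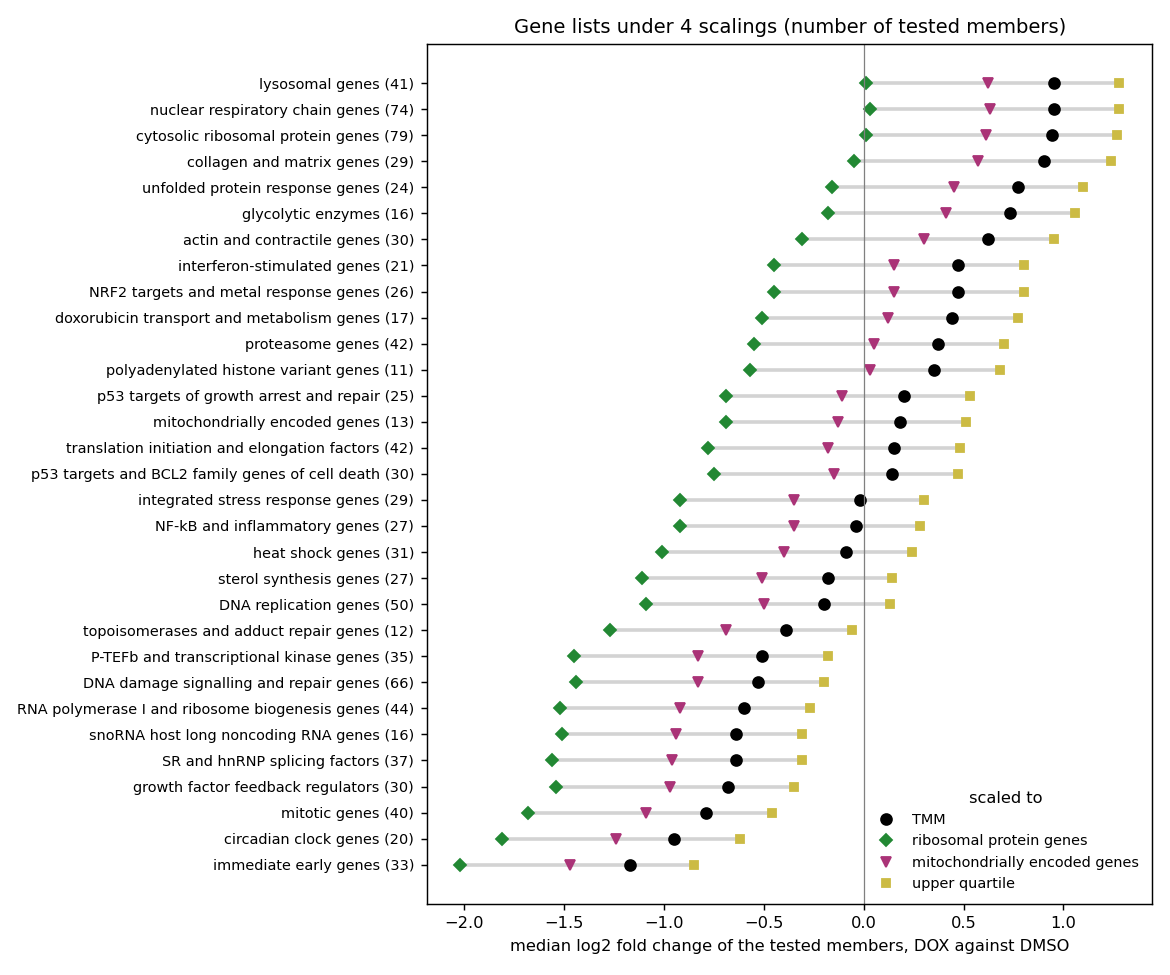
Median log2 fold change of the tested members of 31 gene lists under 4 scalings of the libraries, with the number of tested members in brackets (replication-dependent histone genes are left out, as most passed the minimum only with DOX). Ribosomal protein, respiratory chain and lysosomal genes lie at 0.94, 0.95 and 0.95 with TMM and at 0.01, 0.03 and 0.01 with ribosomal scaling; immediate early genes lie at −1.17 and −2.02.

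Across protein-coding genes at 5 CPM or more, the change went with the span of the gene from start to end. In 5 bins of equal number over 9503 genes, the median log2 fold change was 0.25 for the shortest genes (0.374 to 9.30 kb), then 0.01, −0.19 and −0.38, and −0.60 for the longest (70.2 to 2960 kb). In the longest bin 57.3% of genes were lower and 13.1% higher, against 29.0% and 42.5% in the shortest. Genes over 150 kb, 654 in number, had a median of −0.82. Spearman's rank correlation with span was −0.25, with exon length −0.29, with the number of exon blocks −0.15 and with the DMSO level −0.08 (across 9503 genes of the same libraries, which are not independent, given with no p). Length of exons and span are themselves related, and each also bears on how many reads a gene collects. Genes with a single exon block, 170 in number, had a median of −0.61, below the −0.20 of the others. A block is what remains when all listed exons of a gene that overlap or touch are merged. A gene with introns can therefore have a single block, and what lack of introns goes with was not tested. Numbered zinc finger genes, a family of transcription factors of which 321 were tested, had a median of −1.12, with 66.7% lower and 57.0% lower in all 6 scalings, beside 32.7% and 24.2% of all genes.

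**Figure D5:**
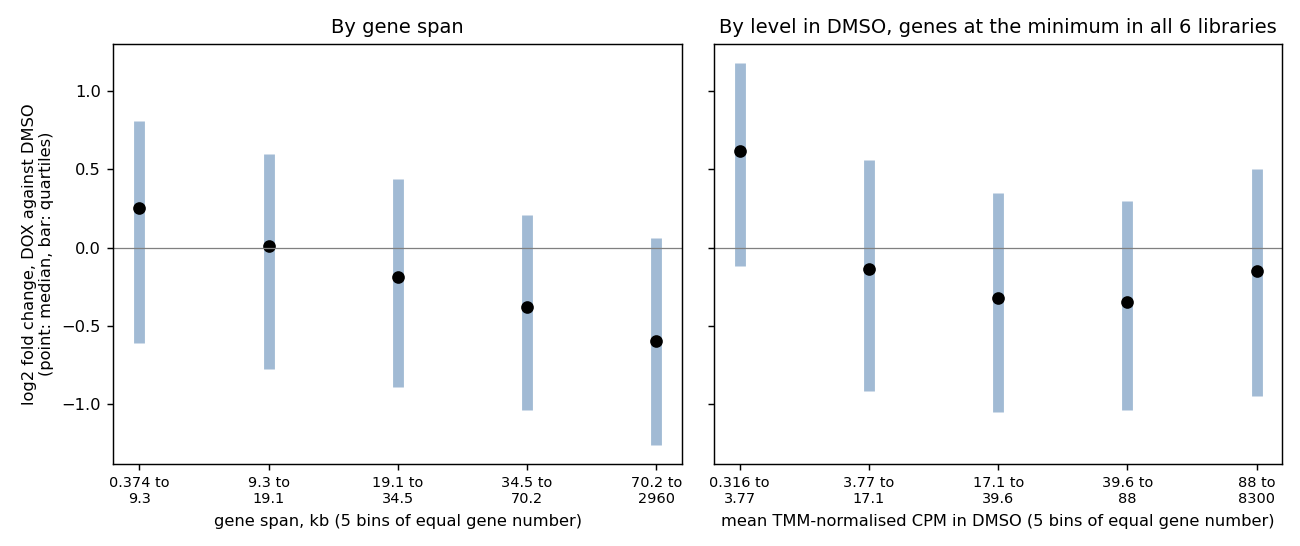
Median (point) and quartiles (bar) of the log2 fold change, DOX against DMSO, in 5 bins of equal gene number by gene span in kb for 9503 protein-coding genes at 5 CPM or more (left), and by mean TMM-normalised CPM in DMSO for the 12625 genes at the minimum count in all 6 libraries (right). The median falls from 0.25 in the shortest to −0.60 in the longest genes, and is 0.62 in the bin of the lowest DMSO levels. The DMSO level that sets the bins on the right also enters the fold change. Left out on the right are 494 genes at the minimum in the DMSO but not all DOX libraries, 322 of them lower and 0 higher. The right panel is therefore a description only.

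Many genes with almost no counts in DMSO were detected with DOX. At least 1 count was found for 21503, 22345 and 21730 genes in DMSO 1 to 3 and for 25782, 25438 and 26809 in DOX 1 to 3. After thinning every library to the smallest total, these were 21521 ± 250 and 25523 ± 1009 genes (SD, n = 3, exact two-sided permutation test, p = 0.1). Genes at 5 CPM or more numbered 9827 ± 59.9 and 9470 ± 407 (p = 0.4, exact permutation test). Of 39302 genes under 0.1 CPM in all 3 DMSO libraries, 124 reached 1 CPM or more in all 3 DOX libraries, and 1 gene did the reverse. Of the 124, 83 were protein-coding, their median was 1.76 CPM and the highest 13.8 CPM. These values chose the genes and are given as a description, with the counts of the examples named, which were picked after their values were seen.

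Position set part of these genes apart from other near-silent genes. Of the 124, 38 (30.6%) began within 10 kb downstream, on the same strand, of a gene at 5 CPM or more in DMSO, against 2.65% of the other 39178 near-silent genes. Psmb8, an immunoproteasome subunit, begins 0.50 kb after the end of the antigen transporter gene Tap1 on chromosome 17, 34416695 to 34420428 (GRCm39), and had 1, 2 and 1 counts in DMSO 1 to 3 and 135, 146 and 232 in DOX 1 to 3. Tap1 itself went from 12.7 to 66.6 CPM of the library total. Cd79a, a chain of the B cell receptor, begins 7.58 kb after the ribosomal protein gene Rps19 and had 2, 3 and 3 counts in DMSO 1 to 3 and 107, 132 and 178 in DOX 1 to 3. Adora2a, an adenosine receptor gene, begins 4.13 kb after Specc1l and had 3, 3 and 3 counts in DMSO 1 to 3 and 142, 172 and 124 in DOX 1 to 3. Efna2, an ephrin gene, begins 6.70 kb after Cirbp, the abundant gene with the largest rise, and had 0, 2 and 1 counts in DMSO 1 to 3 and 114, 141 and 158 in DOX 1 to 3. Other genes of the 124 lay more than 10 kb from an expressed neighbour upstream. Btnl9, of the butyrophilin family, begins 484.34 kb after the nearest such gene upstream on its strand and had 3, 1 and 3 counts in DMSO 1 to 3 and 487, 268 and 697 in DOX 1 to 3, and Tssk3, a testis kinase gene, begins 25.08 kb after Hdac1 and had 0, 0 and 2 counts in DMSO 1 to 3 and 199, 274 and 167 in DOX 1 to 3. Whether reads that run past the end of a gene reach the next was not tested, since the table gives 1 count per gene.

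Markers of other cell types bear on these low levels. The summed level of 10 leukocyte markers was 4.87 to 7.39 CPM with DMSO and 15.3 to 17.7 CPM with DOX, mostly from Lyz2, Cd68 and Cd79a, while Adgre1 and Tyrobp had 0 counts in all 6 libraries and Ptprc and Cd3e reached at most 0.247 CPM. The sum of 10 skeletal muscle markers was 8.26 to 10.2 and 19.6 to 31.4 CPM, mostly from Acta1, with Myod1 at 0 in all 6. Epithelial markers summed to 67.7 to 103 and 77.9 to 93.9 CPM, nearly all from Krt14, with Krt19 at 0 in all 6. Endothelial markers summed to 3.96 to 4.51 and 4.95 to 6.52 CPM, neuronal ones to 16.9 to 24.7 and 18.2 to 25.8 CPM, and hepatocyte ones to 0 to 0.0897 and 0.548 to 0.896 CPM. Their part in the rises from low levels was not tested. Among the fibroblast markers the growth factor receptor genes Pdgfra and Pdgfrb fell, and Pdgfra stood at 243, 138 and 124 CPM with DMSO and 43.7, 30.9 and 37.7 CPM with DOX (log2 fold change −2.17, SE 0.25, edgeR adjusted p = 2.96e-05), while Thy1 rose from 129 ± 14.3 to 279 ± 87.8 CPM (log2 fold change 1.11, SE 0.21, edgeR adjusted p = 0.000889).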

How the data were processed

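Polyadenylated RNA, extracted with an RNeasy mini kit per the labels' protocols, was sequenced from 3 DMSO and 3 DOX libraries. The authors deposited raw counts per Ensembl gene, for which the tools named are STAR 2.7.9a, Trimmomatic 0.39 and featureCounts (Subread 2.0.2) and the build GRCm39, per the submitters' processing notes. The annotation release, the strand setting and the handling of reads that fit several genes are not given in the sources used here.

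Symbols came from a GENCODE table matched by gene ID (52073 of 56980 IDs, 91.4%), and 1190 of 1200 list entries had an ID. Genes passing edgeR's expression filter (minimum count 10, minimum total 15) were tested with edgeR 4.0.16 in R 4.3.3, by a robust quasi-likelihood F test after TMM scaling, with Benjamini-Hochberg adjustment over all 15365 genes and a threshold of 0.05. The SE of a fold change was taken from F, as its absolute log2 value over the root of F. Alternatives were 5 other scalings, DESeq2 1.42.0, limma-voom 3.58.1, other filters and thresholds, 1 model of all 12 libraries, a replicate block and each library left out. The fit was tested on simulated data.

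Named genes were genes chosen for the drug, the 10 largest rises and falls at 50 CPM or more, the 5 largest gains and losses of share, and per list up to 3 called members of largest fold the way the list mainly moved and up to 2 the opposite way, at 1 CPM or more. Mitotic genes with both promoter elements and the near-silent examples were added after their values were seen. Members and lists were chosen with earlier results of these data known. Counts and medians over genes at the minimum in all 6 libraries, and of calls shared with the fit without DOX 3, were added after seeing the data. Results for some genes that the rule named are not reported here.

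Between replicates the counts differed by more than sampling noise (chi-square per degree of freedom 13.09 to 124.4), so each library was counted as 1 replicate. Intervals and limits for counts of 0 cover counting error only.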

Additional observations from a re-analysis of the deposited data

How the results depend on the processing

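The 5550 higher and 5019 lower calls stayed within 1.5 times under relative log expression, library-total and upper-quartile scaling, DESeq2 (5457 and 5008), limma-voom (5504 and 5126), both other filters, the model of all 12 libraries (6017 and 5210) and an adjusted p under 0.01. Leaving out 1 library gave 5173 to 5950 higher and 4577 to 5954 lower genes. Scaling to ribosomal protein genes gave 1771 and 8780, scaling to mitochondrially encoded genes 3630 higher, and the test against a 1.5-fold change 3546 higher. With a replicate block the counts were 5724 and 5216. With it Fn1 was called higher (log2 fold change 0.75, edgeR adjusted p = 0.0151) and Mdm2 lower (−0.36, edgeR adjusted p = 0.0427). Cbr1 was no longer called (0.44, edgeR adjusted p = 0.056). Same-numbered libraries deviated together with r = 0.212, 0.213 and 0.066, so that the numbers were not taken to pair the libraries, although each library correlated best with its own number.

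Under ribosomal scaling these log2 fold changes turned negative: Abcb1b −0.32, Abcc1 −0.62, Cbr1 −0.48, Cdkn1a −0.70, Bax −0.05, Gapdh −0.06, Eef1a1 −0.14, Col1a2 −0.24, Col1a1 −0.23, mt-Co1 −0.11, mt-Co2 −0.02, mt-Co3 −0.27, Aldoa −0.06, Pttg1 −0.06, Rpa3 −0.09, Ercc1 −0.27, Xrcc5 −0.55, Top3a −0.12, Ptbp1 −0.25, Hnrnph1 −0.48, Rrp9 −0.05, Eif3h −0.04, Snhg8 −0.03, Snhg18 −0.22, Hspa2 −0.13, Ahsa1 −0.28, Phgdh −0.16 and Cry1 −0.28, and H2az2 came to 0. Egr1 ranged from −0.86 to 2.17 with 1 library left out, turning positive without DMSO 1. Near-silent genes that appeared numbered 339 at 0.5 CPM and 28 at 2 CPM in place of 1 CPM. At 1 CPM, those downstream of an expressed gene were 19 within 5 kb (15.3%, against 1.28% of the other near-silent genes). Within 50 kb they were 67 (54.0%, against 11.3%). The cause of these shifts was not tested. Over all alternatives run for single genes and lists, 4621 values kept their direction and call, 144 lost and 32 gained a call, and 206 counts moved by over 1.5 times.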

Other observations

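Noncoding classes of genes, like protein-coding ones, were detected in larger number with DOX. Protein-coding genes with at least 1 count numbered 14222 ± 105 with DMSO and 16139 ± 444 with DOX (exact two-sided permutation test, p = 0.1). Long intergenic noncoding genes with at least 1 count numbered 1030, 1105 and 1012 in DMSO 1 to 3 and 1561, 1536 and 1721 in DOX 1 to 3, antisense genes 1149 ± 46.7 and 1421 ± 59.1, and processed pseudogenes 2314 ± 135 and 2875 ± 50.9 (SD, n = 3, exact two-sided permutation test, p = 0.1 for each, the smallest possible). Their part of the counts stayed small, at 0.185 ± 0.00634% and 0.179 ± 0.00684% for long intergenic genes and 0.0799 ± 0.00109% and 0.101 ± 0.0223% for antisense genes. Among tested genes the median log2 fold change was 1.12 for 473 antisense genes, 0.50 for 405 long intergenic genes, 0.73 for 901 processed pseudogenes and −0.05 for 12390 protein-coding genes. Many genes of the low classes were tested only because they were high with DOX. Among genes at the minimum count in all 6 libraries, the medians were 0.67 for 208 antisense genes, 0.08 for 211 long intergenic genes, 0.71 for 557 processed pseudogenes and −0.16 for 11072 protein-coding genes. No source used here gives the strand setting of the counting, and without it an antisense gene and its partner cannot be told apart.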
